A study of Mus musculus with 8 samples.

Results

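The mRNAs of 5 fatty acid binding proteins, *Fabp3*, *Fabp4*, *Fabp5*, *Fabp7* and *Fabp12*, were followed in degenerating mouse retina. The family was selected on the measured level of *Fabp7*, which had stood out among the strongest rises of rd10 retina at postnatal day 15 (P15), and the other members were added by name. All 5 genes passed the filter on low counts, among 20457 genes tested and 57010 gene identifiers counted. The P15 difference of *Fabp7* is therefore a description here, and no test of it supports anything below.

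Whole-retina polyadenylated RNA was sequenced from 8 mouse retinas in 4 groups of 2: wild-type (WT) P15, rd10 P15, rd10 P18 and rd10 P21. rd10 mice are homozygous for a mutation of *Pde6b*, the beta subunit of the rod phosphodiesterase, and their rods degenerate from about these ages onwards. The methods name wild-type littermates as controls, and each library came from 1 whole retina. No WT library of P18 or P21 was analysed here, so beyond P15 the effects of age and of genotype cannot be told apart. Neither the labels nor the methods say whether both retinas of a group came from separate animals, so the p-values measure the spread between these libraries, which may be partly technical. Library totals lay between 28076947 and 33724562 counts. By *Xist* and Y-linked counts, both WT P15 retinas were female and both rd10 P15 retinas were male, and each later group held 1 of each sex.

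Fatty acid binding proteins are small cytosolic proteins that carry long-chain fatty acids, which do not dissolve freely in water, between membranes, oxidation, storage and the nuclear receptors that fatty acids activate. *Fabp7* encodes the brain form of radial glia and astrocytes, which binds docosahexaenoic acid, the fatty acid in which photoreceptor outer segments are rich. *Fabp5* encodes the epidermal form, *Fabp3* the heart and muscle form, *Fabp4* the form of adipocytes, macrophages and some capillary endothelium, and *Fabp12* a member described in retina and testis.

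The members were placed on the GRCm38 genome with the GENCODE M21 annotation. *Fabp5* (ENSMUSG00000027533, chr3:10012548-10016607, plus strand), *Fabp4* (ENSMUSG00000062515, chr3:10204088-10208576, minus strand) and *Fabp12* (ENSMUSG00000027530, chr3:10244209-10301183, minus strand) lie in 1 cluster of 5 genes with *Pmp2* and *Fabp9*, within 289 kb. *Fabp3* (ENSMUSG00000028773) lies at chr4:130308595-130315463 and *Fabp7* (ENSMUSG00000019874) at chr10:57784881-57788450, both on the plus strand.

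The first 60 coding bases of each member, from the principal transcript of the same annotation, show how alike the 5 messages are, which bears on whether reads can be assigned to the right member. They are written 5′ to 3′. *Fabp7* is in lower case throughout, and in the other 4 a capital marks a base identical to *Fabp7* in the alignment of the whole coding sequences.
Fabp7: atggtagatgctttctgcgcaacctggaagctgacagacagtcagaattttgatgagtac
Fabp3: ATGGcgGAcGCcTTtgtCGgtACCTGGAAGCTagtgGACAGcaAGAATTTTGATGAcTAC
Fabp4: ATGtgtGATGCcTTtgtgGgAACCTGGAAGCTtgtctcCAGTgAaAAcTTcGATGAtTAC
Fabp12: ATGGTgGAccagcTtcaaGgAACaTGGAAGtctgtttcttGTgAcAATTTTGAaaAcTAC
Fabp5: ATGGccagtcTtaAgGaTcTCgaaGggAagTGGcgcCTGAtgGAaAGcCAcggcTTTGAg

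Of these 60 bases, 44 in *Fabp3*, 40 in *Fabp4*, 33 in *Fabp12* and 30 in *Fabp5* were as in *Fabp7*. Over the whole coding sequences, of 399 to 408 bases, identity ran from 56.1% (*Fabp5* and *Fabp7*) to 66.2% (*Fabp3* and *Fabp7*). No 2 members shared a stretch of 25 bases, and the longest shared run was 20 bases, between *Fabp3* and *Fabp7*. The exons of *Fabp3* overlap those of *Zcchc17* on the other strand by 81 bases, 9.84% of the *Fabp3* exon length. The library kit is not stated to keep strand, so a part of the *Fabp3* reads cannot be told apart from *Zcchc17*, which had 1201 to 2124 counts per library.

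*Fabp7* is the member whose level moved most, and its upstream sequence is shown for that reason. RefSeq promoter windows were at hand for *Fabp3* and *Fabp7* among the 5 members. The 250 bases before the RefSeq start of *Fabp7* (GRCm38.p6, chr10:57784673-57784922, plus strand) are given, of which the last 42 lie inside the gene as GENCODE M21 places it, since the RefSeq start is further downstream. They are written with the searched motifs that were found in capitals.
Fabp7 upstream: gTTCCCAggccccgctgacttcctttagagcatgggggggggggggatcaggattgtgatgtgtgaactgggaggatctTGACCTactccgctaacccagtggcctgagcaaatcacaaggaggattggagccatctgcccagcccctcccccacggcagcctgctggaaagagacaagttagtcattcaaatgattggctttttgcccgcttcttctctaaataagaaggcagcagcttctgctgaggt
Both capital runs are motifs read on the minus strand. The run at base 2 is TGGGAA, the core bound by the Notch effector RBPJ, and the run at base 80 is AGGTCA, the core hexamer bound by nuclear receptors. Over all 32851 RefSeq promoter windows of 300 bases, searched on both strands, 25.6% held TGGGAA and 16.3% held AGGTCA. The SOX core ATTGTT, the TATA box TATAAA and the GC box GGGCGG, held by 10.7%, 13.6% and 35.7% of windows, had no match in the *Fabp7* window, and none of the 5 motifs had a match in that of *Fabp3*. A match is letters in a window and says nothing of binding in these retinas.

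*Fabp7* was low in WT P15 retina, high in rd10 P15 retina and low again at P18 and P21. Its level, in reads per megaread of the TMM-scaled library (CPM), was 1.15 and 1.65 in the WT P15 libraries, from 31 and 51 counts. In rd10 P15 it reached 10.1 and 10.6 CPM, from 316 and 301 counts. The P18 retinas had 2.57 and 1.70 CPM and the P21 retinas 3.11 and 2.20 CPM. Both rd10 P15 libraries stood above all 6 others by at least 3.23 times, and the P18 and P21 libraries overlapped each other.

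The group means of *Fabp7* were 1.40 ± 0.357, 10.3 ± 0.392, 2.13 ± 0.611 and 2.66 ± 0.643 CPM (SD, n = 2) in that order. The log2 fold change of rd10 P15 against WT P15 was 2.88 (SE 0.40), 7.36-fold, which chose the gene and gets no test. The differences that share its libraries are given in the same way: 0.61 (SE 0.38) for rd10 P18 and 0.92 (SE 0.38) for rd10 P21 against WT P15. Against rd10 P15, the log2 fold change of *Fabp7* was -2.27 (SE 0.39) at P18 and -1.96 (SE 0.38) at P21. rd10 P21 against rd10 P18, the comparison that shares no library with the choice, was tested: the log2 fold change was 0.32 (SE 0.38, edgeR quasi-likelihood test, adjusted p = 0.776), with an interval of 2 SE from -0.43 to 1.07.

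**Figure D1:**
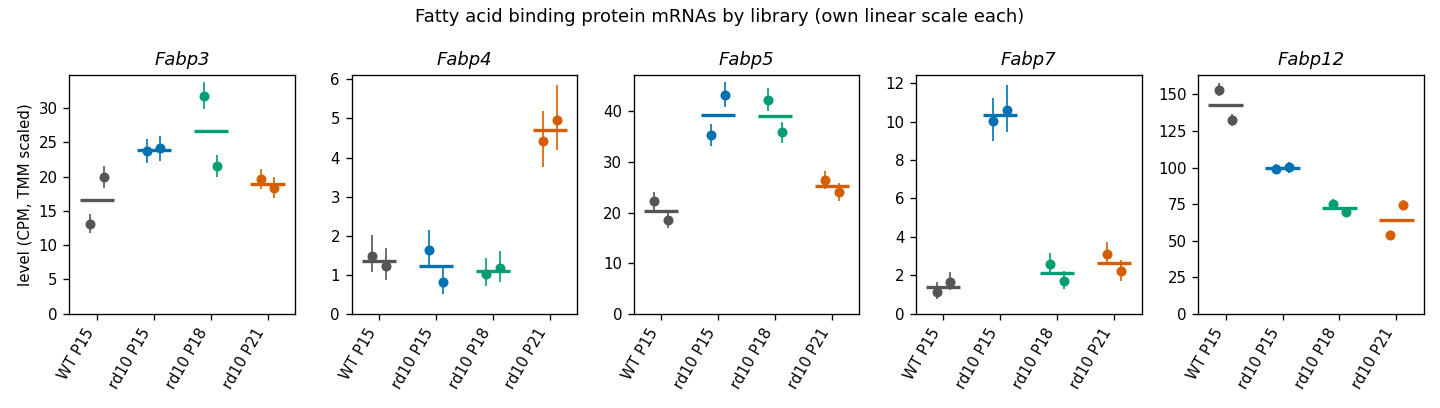
Level of each member (vertical axis, CPM scaled by TMM, linear from 0, with its own scale in each panel) in the 8 libraries, by group. Points are libraries with exact 95% Poisson intervals, which cover counting error only, and bars are group means. *Fabp7* peaks in rd10 P15 at 10.1 and 10.6 CPM, *Fabp4* is highest in rd10 P21 at 4.43 and 4.96 CPM, and *Fabp12* is highest in WT P15 at 153 and 132 CPM.

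Retinal pigment epithelium (RPE) markers, like *Fabp7*, were highest in rd10 P15. The summed level of 11 RPE genes, among them *Rpe65*, *Best1* and *Ttr*, was 52.9 and 187 CPM in the WT P15 libraries and 292 and 331 CPM in rd10 P15. It was 33.1 to 51.1 CPM in rd10 P18 and 47.7 to 51.3 CPM in rd10 P21. Against WT P15, the median log2 fold change of the 11 was -1.35 at P18 and -0.51 at P21, beside 0.61 and 0.92 for *Fabp7*. Against rd10 P15, this median was -2.83 at P18 and -2.37 at P21, beside -2.27 and -1.96 for *Fabp7*. There 10 and 8 of the 11 were lower without overlap, and 0 and 1 higher, beside 42.3% and 51.5% of genes apart either way. DESeq2 called 8 and 8 of the 11, beside 594 and 532 of 20457 genes, and edgeR 0 and 1, beside 0.591% and 0.401%. At P15, 9 of the 11 were higher in both rd10 libraries than in both WT libraries. Libraries did not overlap, either way, for 49.7% of all genes tested. Of the 11, edgeR called 0, beside 0.23% of genes, and DESeq2 called 2, beside 430 of 20457 genes. An unadjusted p under 0.05 was found for 4 of 11, and its share over all genes there was not computed. The median log2 fold change of the 11 was 1.18 beside -0.01 over all genes tested. None of the 11 was at 0 in either P15 group. Endothelial markers were higher at P15 too, with a median of 1.09 over 10 genes. Of the 10, 6 were higher in both rd10 libraries and edgeR called 1, beside the same 49.7% and 0.23% of genes. DESeq2 called 4 of the 10, beside 430 of 20457 genes. An unadjusted p under 0.05 was found for 5 of the 10, again a share not computed over all genes. The part of these cells in the *Fabp7* values was not tested.

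The sex of the retinas differed fully between the P15 groups, so within P15 it cannot be told apart from genotype. With a term for sex, which draws on the later, mixed groups, the P15 log2 fold changes were 2.33 in place of 2.88 for *Fabp7*, 0.20 in place of 0.53 for *Fabp3*, 0.76 in place of 0.95 for *Fabp5* and -0.34 in place of -0.52 for *Fabp12*, each nearer to 0.

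Glial markers were summed by group. The 11 Muller glia genes summed to 4956 to 5463 CPM in WT P15 and 4534 to 5318 CPM in rd10 P15, where the median of their log2 fold changes was 0.02, and to 6700 to 7245 CPM in rd10 P21. The 10 reactive glia genes, *Gfap* included, summed to 273 to 303 CPM in WT P15 and 253 to 254 CPM in rd10 P15. They summed to 1758 to 1855 CPM in rd10 P18. In rd10 P15 against WT P15 their median log2 fold change was -0.52. There edgeR called 1 of the 10 higher and 1 lower, beside 0.23% of all genes tested. Libraries were apart for 5 lower and 1 higher, beside 49.7% of genes. In rd10 P18 against WT P15, 9 of 10 reactive glia genes were called higher, with a median of 2.84, where 1.48% of all genes tested were called. The 8 retinal astrocyte genes, which also include *Gfap*, summed to 117 to 152 CPM in WT P15, 160 to 163 CPM in rd10 P15 and 536 to 596 CPM in rd10 P18. In bulk tissue, fewer cells of a type and less RNA per cell cannot be told apart. The part of glia in the *Fabp7* values was not tested.

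Of 16 regulators of glial *Fabp7* (Notch receptors and effectors, *Pax6*, SOX and NFI factors), edgeR called 0 in any of the 6 comparisons, 10 had an unadjusted p under 0.05 in at least 1, and DESeq2 called *Notch1*, *Notch3* and *Sox9* in at least 1. These shares over all genes were not computed for the 6 comparisons together. In rd10 P18 against WT P15 alone, 17.4% of all genes had such a p and DESeq2 called 4.64%. Against WT P15, the median log2 fold change of the 16 was 0.28 at P15, 0.40 at P18 and 0.54 at P21, with 14, 13 and 16 of 16 positive. The part of these regulators in the *Fabp7* values was not tested. *Notch3*, a Notch receptor best known in pericytes, had the smallest adjusted p of the list. It was 4.43 and 4.47 CPM in WT P15 and 12.2 and 10.3 CPM in rd10 P15, a log2 fold change of 1.34 (SE 0.25, edgeR adjusted p = 0.0696). DESeq2 called it there (adjusted p = 0.00090), as did edgeR with the 4 libraries alone (0.0483). When single libraries were left out, the log2 fold change was 1.21 to 1.46, and edgeR called *Notch3* in some omissions and not in others. *Notch3* was 5.49 and 5.92 CPM in rd10 P18 and 8.34 and 7.59 CPM in rd10 P21, so that it was higher at P21 than at P18.

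None of the 5 genes nearest to *Fabp7* over the 8 libraries belonged to a marker list used here. The lists are short and the share of compared genes on them was not computed, so this count is no result about cell types. Likeness was the root mean square difference of log2 CPM after centring each gene on its own mean, among 14947 genes. By that measure the nearest were *Cdh3*, the adhesion protein P-cadherin, at 0.36, *Kif19a*, a kinesin of cilia, at 0.39, *Aplnr*, the apelin receptor of vessels, at 0.42, *Col8a1*, a collagen of basement membranes, at 0.45 and *Thbs1*, the matrix protein thrombospondin, at 0.47. The *Fabp7* profile itself had a root mean square of 1.09 about its mean, so these genes share the P15 peak but not every later value. The shared peak follows from how these genes were picked. *Aplnr* had 0.961 and 1.33 CPM in WT P15, 10.4 and 11.1 CPM in rd10 P15 and 1.92 to 3.49 CPM later.

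**Figure D2:**
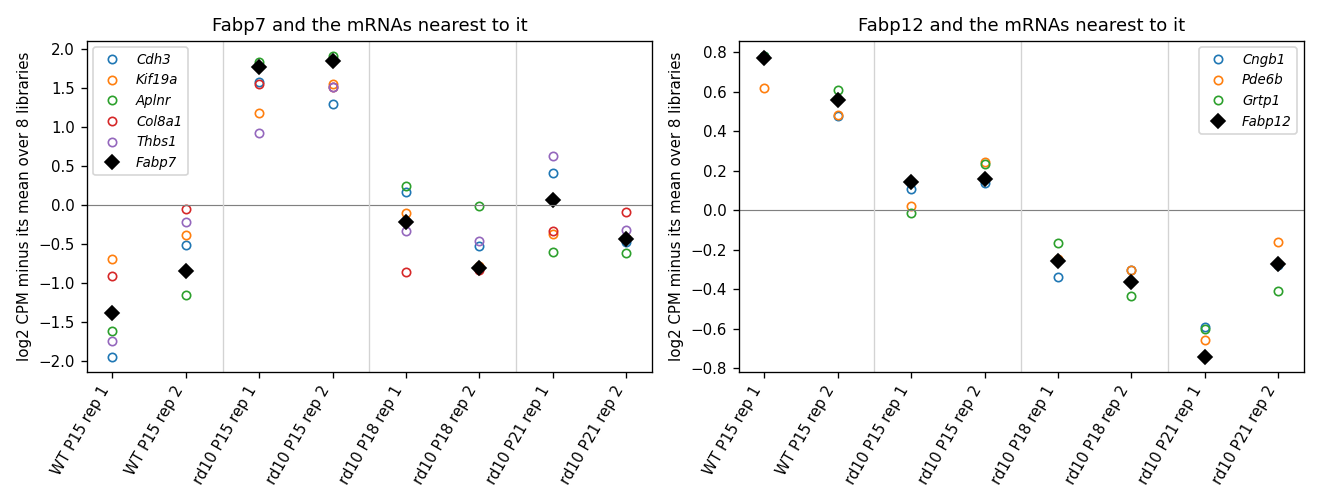
Level of *Fabp7* (left) and *Fabp12* (right) and of the mRNAs nearest to each (vertical axis, log2 CPM minus the mean over 8 libraries), by library. *Fabp7* and its 5 neighbours are highest in both rd10 P15 libraries, and *Fabp12* and its 3 neighbours are highest in both WT P15 libraries. The neighbours were picked as nearest over these same libraries, so the shared peaks follow from the choice.

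*Fabp12* was the most abundant member in WT retina and was lower in every rd10 group. Its level was 153 and 132 CPM in the WT pair, 99.1 and 100 in the rd10 pair of P15, 75.2 and 69.7 in the P18 pair and 53.7 and 74.4 CPM in the P21 pair. No rd10 library reached a WT library. The P18 and P21 libraries overlapped, and both groups lay below rd10 P15.

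In rd10 P21 against WT P15, *Fabp12* fell by 1.16 on the log2 scale (SE 0.17, edgeR adjusted p = 0.0445), from 143 ± 14.9 to 64.0 ± 14.6 CPM (SD, n = 2). It was the 1 of 5 members called in that comparison, a call being an adjusted p under 0.05 with a log2 fold change beyond 1 either way, where 0.386% of all genes tested were called. The call was lost with a replicate block (adjusted p = 0.0735), with a term for sex (0.0868), with the 4 libraries compared alone (0.0535), and without WT P15 replicate 1 (0.257), WT P15 replicate 2 (0.0992), rd10 P15 replicate 1 (0.0942) or 2 (0.0949), or rd10 P21 replicate 1 (0.192). The log2 fold change stayed between -1.40 and -0.94 when libraries were left out.

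At P18 the *Fabp12* level passed the adjusted p but not the fold threshold, with a log2 fold change of -0.98 against WT P15 (SE 0.17, edgeR adjusted p = 0.0359). That p was 0.0601 with a replicate block, 0.0893 with a term for sex, 0.0881 with the 4 libraries alone, and 0.0737 to 0.240 without either WT P15 or either rd10 P15 library. The P15 difference, -0.52 (SE 0.17), is a description. Between rd10 ages no test was passed: the log2 fold change was -0.46 (SE 0.17, edgeR adjusted p = 0.323) for P18 against P15, -0.64 (SE 0.17, adjusted p = 0.184) for P21 against P15, and -0.18 (SE 0.17, adjusted p = 0.716) for P21 against P18.

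The mRNAs nearest to *Fabp12* were rod genes in 2 of 3 cases. *Cngb1*, a subunit of the rod cyclic nucleotide-gated channel, lay at 0.07, *Pde6b*, the gene mutated in rd10, at 0.10 and *Grtp1*, a protein with a TBC domain, at 0.10, beside a root mean square of 0.47 for *Fabp12* itself. *Cngb1* had 1225 and 992 CPM in the WT pair, 768 and 782 in the rd10 pair of P15, 562 and 577 in the P18 pair and 473 and 587 CPM in the P21 pair. The 9 rod markers summed to 30419 to 33779 CPM in WT P15, 23210 to 24607 in rd10 P15, 18843 to 20592 in rd10 P18 and 13863 to 17468 CPM in rd10 P21, with medians of -0.43, -0.75 and -0.98 against WT P15. The part of rod content in the *Fabp12* values was not tested.

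*Fabp5* was higher in rd10 P15 and P18 than in WT P15 and lower again at P21. Its level was 22.2 and 18.5 CPM in the WT pair, 35.3 and 43.3 in the rd10 pair of P15, 42.3 and 35.8 in the P18 pair and 26.4 and 24.1 CPM in the P21 pair. The P15 and P18 libraries of rd10 overlapped, all 4 lay above both P21 libraries, and both P21 libraries lay above both WT libraries, the nearest pair by 1.08 times.

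For *Fabp5* in rd10 P18 against WT P15 the log2 fold change was 0.94 (SE 0.19, edgeR adjusted p = 0.0473), past the adjusted p and short of the fold threshold. With library size alone as the scale it was 1.07 and called (adjusted p = 0.0313), and the adjusted p was 0.0741 with a replicate block, 0.114 with a term for sex and 0.133 with the 4 libraries alone. It stayed under 0.05 without rd10 P18 replicate 2 (0.0100) and was 0.0667 to 0.227 without any other library. At P15 the log2 fold change was 0.95 (SE 0.19), a description. At P21 it was 0.31 against WT P15 (SE 0.18, edgeR adjusted p = 0.582), -0.64 against rd10 P15 (SE 0.18, adjusted p = 0.206) and -0.63 against rd10 P18 (SE 0.18, adjusted p = 0.429). P18 against P15 was -0.01 (SE 0.18, edgeR adjusted p = 0.992), with an interval of 2 SE from -0.37 to 0.36.

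The mRNAs nearest to *Fabp5* were *Rhbdf2*, which encodes an inactive rhomboid that guides a sheddase, at 0.10, *Tpm4*, a tropomyosin, at 0.12 and *Rnd3*, a small GTPase, at 0.12, beside 0.42 for *Fabp5* itself. *Fabp5* is also expressed in macrophages. The 10 microglia markers summed to 76.2 to 86.1 CPM in WT P15, 105 to 108 in rd10 P15, 263 to 271 in rd10 P18 and 203 to 390 CPM in rd10 P21. The part of microglia in the *Fabp5* values was not tested.

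*Fabp3* passed no test in the 5 comparisons where it was tested. Its level was 13.2 and 19.9 CPM in the WT pair, 23.7 and 24.1 in the rd10 pair of P15, 31.8 and 21.5 in the P18 pair and 19.6 and 18.4 CPM in the P21 pair. The WT and P21 libraries overlapped, and the WT libraries lay below those of P15 and P18. The log2 fold change against WT P15 was 0.53 at P15 (SE 0.26, a description), 0.69 at P18 (SE 0.26, edgeR adjusted p = 0.223, DESeq2 0.161) and 0.20 at P21 (SE 0.26, adjusted p = 0.854). Leaving out single libraries gave 0.38 (without rd10 P18 replicate 1) to 1.02 (without WT P15 replicate 2) at P18, with an adjusted p of 0.0397 without rd10 P18 replicate 2, and 0.27 to 0.86 at P15 (without WT P15 replicate 1 or 2). Between rd10 ages it was 0.16 for P18 against P15 (SE 0.25, edgeR adjusted p = 0.848), -0.33 for P21 against P15 (SE 0.25, adjusted p = 0.643) and -0.49 for P21 against P18 (SE 0.25, adjusted p = 0.511).

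The nearest mRNAs to *Fabp3* were *Tspan12*, a tetraspanin of Norrin signalling, at 0.08, *Vstm2l* at 0.10 and *Gsto1*, a glutathione transferase, at 0.11, beside 0.34 for *Fabp3* itself. The 11 striated muscle markers, for the tissue in which *Fabp3* is best known, summed to 4.48 to 7.80 CPM over all libraries, and *Myh4* and *Tnnt3* were at 0 in all 4 groups.

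*Fabp4* was near 1 CPM until P21. It was 1.48 and 1.23 CPM in WT P15 (40 and 38 counts), 1.62 and 0.811 CPM in rd10 P15 (51 and 23 counts), and 1.01 and 1.17 CPM in rd10 P18 (34 and 37 counts). In rd10 P21 it was 4.43 and 4.96 CPM (155 and 142 counts). Both P21 libraries lay above all 6 others, and the range of the rd10 P15 pair held the other 4 values.

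The log2 fold change of *Fabp4* at P21 was 1.79 against WT P15 (SE 0.48, edgeR adjusted p = 0.175), 1.94 against rd10 P15 (SE 0.49, adjusted p = 0.162) and 2.10 against rd10 P18 (SE 0.49, adjusted p = 0.406). None passed the test. DESeq2 called all 3, with adjusted p of 0.0446, 0.0252 and 0.0348 in that order, where it called 2.79%, 2.6% and 0.567% of all genes. Before P21 the differences were -0.15 for rd10 P15 against WT P15 (SE 0.48, a description), -0.31 for rd10 P18 against WT P15 (SE 0.48, edgeR adjusted p = 0.794) and -0.16 for P18 against P15 (SE 0.48, adjusted p = 0.924).

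Markers of the cells that use *Fabp4* were set beside it. Of 9 adipocyte markers, *Adipoq*, *Cidec*, *Lep* and *Cfd* were at 0 in every group, and the 9 summed to 15.05 to 18.1 CPM in rd10 P21, beside 8.22 to 10.6 CPM in WT P15, 5.66 to 6.27 CPM in rd10 P15 and 13.1 to 13.9 CPM in rd10 P18. The 10 endothelial markers summed to 413 to 519 CPM in rd10 P21, beside 256 to 322, 352 to 399 and 290 to 334 CPM in the other groups. Their median log2 fold changes were 1.09, 0.69 and 0.69 at P15, P18 and P21 against WT P15. Of the 10, edgeR called 1, 1 and 0 in these comparisons, beside 0.23%, 1.48% and 0.386% of all genes tested. At P21, DESeq2 called 1 of the 10, beside 2.79% of genes. At P21, 6 had an unadjusted p under 0.05, a share not computed over all genes. The 10 monocyte and macrophage markers summed to 39.1 to 64.2 CPM in rd10 P21 and 62.9 to 64.3 CPM in rd10 P18. The part of these cells in the *Fabp4* values was not tested. The nearest mRNAs, the unnamed gene *AC132288.2* at 0.32, *Acss3*, an acyl-CoA synthetase of short chains, at 0.34 and *Olfml3*, a secreted matrix protein, at 0.37, were less near than those of *Fabp3*, *Fabp5* and *Fabp12*, beside 0.88 for *Fabp4* itself.

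**Figure D3:**
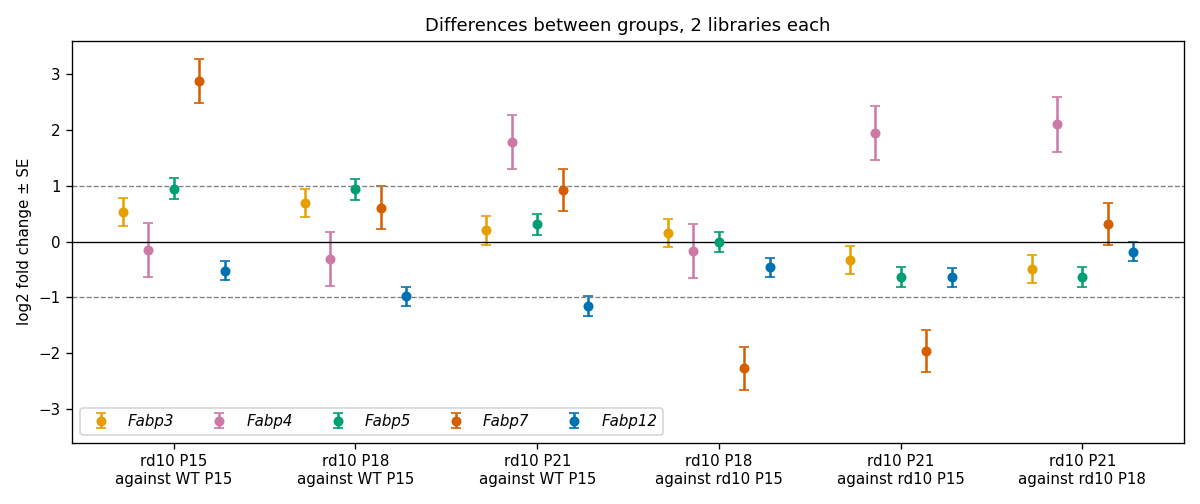
Log2 fold change of each member (vertical axis, first group minus second, bars are SE) in the 6 comparisons, 2 libraries a group. Dashed lines mark the fold threshold of 1 in either direction. *Fabp7* is at 2.88 in rd10 P15 against WT P15, *Fabp4* is near 2 in the 3 comparisons of rd10 P21, and *Fabp12* is below 0 in all 6.

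Over the 5 members together, 1 of 5 was called in rd10 P15 against WT P15, which is *Fabp7* and follows from the choice; 0.23% of all genes tested were called there. In rd10 P18 against WT P15, 0 of 5 were called by edgeR, beside 1.48% of genes, and 0 by DESeq2, beside 4.64%. At an unadjusted p under 0.05 there were 3, beside 17.4% of genes, and *Fabp5* and *Fabp12* passed the adjusted p alone, which 1.89% of genes did. *Fabp7* was chosen on the rd10 P15 libraries, so in the comparisons with them the other 4 members are counted. In rd10 P18 against rd10 P15 edgeR called 0 of these 4, beside 0.591% of genes, with 1 at an unadjusted p under 0.05 and 0 called by DESeq2. In rd10 P21 against rd10 P15 edgeR called 0 of the 4, beside 0.401% of genes, with 3 at an unadjusted p under 0.05 (12.8% of genes), and DESeq2 called *Fabp4*, beside 2.6% of genes. In rd10 P21 against rd10 P18 edgeR called 0 of 5, beside 0.0196% of genes, with 2 at an unadjusted p under 0.05 (10.8% of genes), and DESeq2 called *Fabp4*, beside 0.567% of genes.

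Libraries of 2 groups did not overlap for 4, 5 and 4 of the 5 members in rd10 P15, P18 and P21 against WT P15, where 49.7%, 47% and 49.2% of all genes tested did not overlap. These 3 comparisons share the WT P15 libraries. In rd10 P18 against rd10 P15 the libraries were apart for 2 of 5 members, in rd10 P21 against rd10 P15 for 5 and in rd10 P21 against rd10 P18 for 3, beside 42.3%, 51.5% and 43% of genes. *Fabp7* is among the members apart in every comparison that uses the WT P15 or rd10 P15 libraries, on which it was chosen. Those counts therefore hold a member picked on the same libraries. With 2 libraries a group, non-overlap is common, and it is no test. The median log2 fold change of the 5 members was 0.53, 0.61 and 0.31 in rd10 P15, P18 and P21 against WT P15, beside -0.01, 0.01 and 0.00 over all genes, and without *Fabp7*, on which the choice was made, 0.19, 0.19 and 0.25. Over all 5 it was -0.16, -0.64 and -0.18 in rd10 P18 against P15, P21 against P15 and P21 against P18.

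Compared with each other per length of their principal transcripts, which ran from 804 bases (*Fabp7*) to 2512 bases (*Fabp12*), the members changed order. In WT P15 the level of *Fabp12* was 56.8 CPM per kb, above *Fabp5* at 20.7 and *Fabp3* at 20.1, which overlapped, and above *Fabp7* at 1.74 and *Fabp4* at 1.51 CPM per kb, which overlapped too. In rd10 P15, by that length, *Fabp5* at 39.8 and *Fabp12* at 39.6 CPM per kb overlapped, followed by *Fabp3* at 29.1, *Fabp7* at 12.9 and *Fabp4* at 1.36 CPM per kb, each apart from the next. In rd10 P18 *Fabp5* at 39.6, *Fabp3* at 32.4 and *Fabp12* at 28.8 CPM per kb were not told apart from their neighbours in the order. In rd10 P21 the same 3 lay at 23.1 to 25.5 CPM per kb, and *Fabp4*, at 5.24 CPM per kb, lay above *Fabp7*, at 3.30. This order depends on the length used. Per kb of all annotated exons, a scale added after the data were seen, on which *Fabp4* has 4489 bases in place of 896 and *Fabp5* 3567 in place of 987, *Fabp5* ranked below *Fabp12* and *Fabp3* in every group, at 5.71, 11.01, 10.9 and 7.07 CPM per kb, and *Fabp4* was below *Fabp7* in every group, with 1.05 beside 2.13 CPM per kb in rd10 P21.

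As a share of the reads of the 5 members, with no correction for length, *Fabp12* took 80.1% and 76.2% in the WT pair, 58.4% and 55.9% in the rd10 pair of P15, 49.2% and 53.7% at P18, and 50.1% and 60% at P21. The 5 members summed to 174 to 191 CPM in WT P15 and to 107 to 124 CPM in rd10 P21. The lower sum came with *Fabp12*, whose mean was 143 CPM in WT P15 and 64.0 CPM in rd10 P21. The other 4 members had higher means in rd10 P21 than in WT P15, and of these *Fabp3*, *Fabp4* and *Fabp5* passed no edgeR test there.

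**Figure D4:**
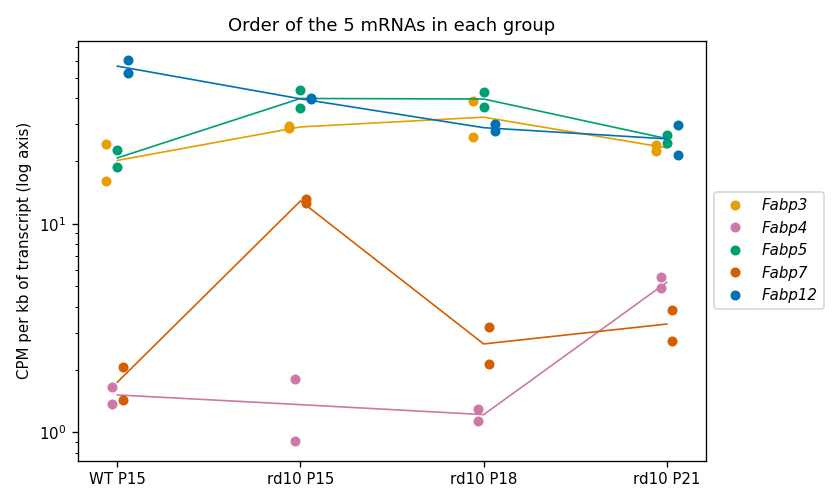
Level per length of the 5 members (vertical axis, CPM per kb of principal transcript, log axis) in the 4 groups. Points are libraries and lines join group means. *Fabp12* stands alone at the top in WT P15 at 56.8 CPM per kb, while *Fabp5*, *Fabp3* and *Fabp12* lie together in rd10 P18 and P21 on this length, but not per kb of all exons, where *Fabp5* is at 10.9 and 7.07.

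Relatives of the 5 members were mostly absent or scarce. Of 9 other intracellular lipid-binding proteins followed here, *Fabp1*, *Fabp2*, *Fabp6* and *Fabp9* had no count in any library, and *Pmp2*, *Rbp2* and *Rbp7*, with at most 16, 4 and 8 counts in a library, did not pass the filter. *Pmp2* and *Fabp9* share 86.9% and 53.0% of their exon bases with *Gm37389* on the same strand, so their reads cannot be told apart from it. The 2 that passed bind retinoic acid. *Crabp1*, a cellular retinoic acid-binding protein, was 6.84 and 11.5 CPM in the WT pair, 30.3 and 25.3 in the rd10 pair of P15, 32.5 and 22.1 in the P18 pair and 14.2 and 11.7 CPM in the P21 pair.

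*Crabp1* rose at P18 against WT P15 by 1.57 on the log2 scale (SE 0.30, edgeR adjusted p = 0.0431). At P15 its log2 fold change was 1.60 (SE 0.30, edgeR adjusted p = 0.0697), short of the test. DESeq2 called it at P15 (adjusted p = 0.00023), as did edgeR with no filter (0.0337) and with the 4 libraries alone (0.0396). With a replicate block the edgeR adjusted p at P15 was 0.120. With a term for sex it was 0.418, at a log2 fold change of 1.17. Leaving out single libraries gave log2 fold changes of 1.27 to 2.02 at P15. Thus 1 of the 2 was called at P18, beside the 1.48% of all genes. The call was lost with a replicate block (adjusted p = 0.0711), with the 4 libraries alone (0.128) and with a term for sex (0.102). Among the omissions of 1 library it was kept only without rd10 P18 replicate 2 (0.0062, otherwise up to 0.246). *Crabp2*, the other retinoic acid-binding protein, stayed at 0.647 to 1.44 CPM, and its log2 fold changes lay between -0.09 and 0.22, none past the test.

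Genes that act with these carriers were counted by role. Of 17 genes of fatty acid uptake and activation, 15 were tested and edgeR called 1, in rd10 P18 against WT P15, while DESeq2 called 6 in at least 1 comparison. It was *Dbi*, the acyl-CoA-binding protein, at 47.5 and 48.5 CPM in the WT pair, 83.2 and 89.6 in the rd10 pair of P15, 140 and 84.0 in the P18 pair and 54.4 and 49.7 CPM in the P21 pair. *Dbi* rose by 1.22 at P18 (SE 0.22, edgeR adjusted p = 0.0370), a call lost with a replicate block (0.0521), with the 4 libraries alone (0.128) and with a term for sex (0.0618), and kept, among the omissions of 1 library, only without rd10 P18 replicate 2 or rd10 P21 replicate 2 (otherwise an adjusted p up to 0.234, or without rd10 P18 replicate 1 a log2 fold change of 0.81). The median of the 15 was 0.25 there. *Cd36*, the fatty acid receptor that the study turns on, was not picked by the naming rule. It was 2.13 CPM on average in WT P15 and 3.31 in rd10 P18. Its log2 fold change was 0.63 (SE 0.39, edgeR adjusted p = 0.449). The paper's CD36 and PPARγ results come from mice treated with MNU, a chemical that induces retinal degeneration, and not from rd10 retina.

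Of 8 nuclear receptors and coactivators of fatty acid signalling, 7 were tested. *Pparg*, also central to the study and outside the naming rule, had no count in either P15 group and was not tested. It had counts in at least 1 library of rd10 P18 and of rd10 P21. *Ppargc1b*, a coactivator of mitochondrial genes, was called lower in both later rd10 groups against rd10 P15, the only gene of its list that edgeR called in the 6 comparisons. Its level was 92.5 and 84.3 CPM in the WT pair, 99.9 and 113 in the rd10 pair of P15, 44.4 and 56.4 in the P18 pair and 52.5 and 52.2 CPM in the P21 pair. It fell by 1.08 at P18 (SE 0.15, edgeR adjusted p = 0.0342) and by 1.02 at P21 (SE 0.15, adjusted p = 0.0411). The P18 call was lost with the 4 libraries alone (adjusted p = 0.122), without either WT P15 library, either rd10 P15 library (up to 0.222) or rd10 P18 replicate 1, where the log2 fold change was -0.91. The P21 call was lost with a replicate block (0.0635), with library size alone as the scale (a log2 fold change of -0.95), and without either WT P15, either rd10 P15 or either rd10 P21 library (0.0727 to 0.268).

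In the other lists edgeR made no call in any of the 6 comparisons. At least 1 unadjusted p under 0.05 was found for 7 of 11 PPAR targets, 11 of 19 oxidation genes, 6 of 9 lipid release genes and 8 of 13 synthesis genes, and DESeq2 called *Plin2* and *Angptl4*, *Cpt1b*, and none in the last 2 lists. The share of all genes with such a p in at least 1 of the 6 comparisons was not computed. In rd10 P18 against WT P15 alone, 17.4% of all genes had one, so these counts are no result about the lists. Of 14 PPAR targets 11 were tested, and 10 of the 11 were higher in the mean of rd10 P18 than of WT P15, with a median of 0.63 beside 0.01 over all genes. *Plin2*, which coats lipid droplets, had the smallest adjusted p. It had 5.14 and 6.83 CPM in WT P15 and 16.2 and 16.5 CPM in rd10 P18. Its log2 fold change was 1.45 (SE 0.35, edgeR adjusted p = 0.0873, DESeq2 0.0071). When single libraries were left out, the log2 fold change was 1.27 to 1.67, and edgeR called *Plin2* in only some omissions. All 19 genes of mitochondrial fatty acid oxidation were tested, with medians of -0.06, 0.20 and -0.05 at P15, P18 and P21 against WT P15.

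*Cpt1b*, the muscle carnitine palmitoyltransferase, ranged from 0.176 CPM in an rd10 P15 library to 7.67 CPM in WT P15 replicate 2, and its WT libraries differed between 0.924 and 7.67 CPM. Its log2 fold change of 4.88 for rd10 P18 against rd10 P15 (SE 0.96) did not pass the test (edgeR adjusted p = 0.0814). DESeq2 called it (adjusted p = 9.8e-06), as did edgeR with the 4 libraries alone (0.0339). When single libraries were left out, the log2 fold change was 4.65 to 5.17, and edgeR called *Cpt1b* in some omissions and not in others. The 9 genes that free fatty acids from stored lipid had a median of 0.13 at P18 against WT P15. *Faah*, which hydrolyses fatty acid amides, was 41.1 and 37.7 CPM in WT P15 and 20.6 and 19.9 CPM in rd10 P18, a log2 fold change of -0.96 (SE 0.15, edgeR adjusted p = 0.0291), short of the fold threshold. The 13 genes of long-chain fatty acid synthesis had a median of -0.42 at P18, and *Scd1*, a desaturase, had -0.99 there (SE 0.19, edgeR adjusted p = 0.0405), from 19.7 and 21.8 CPM to 10.2 and 10.7 CPM, also short of the fold threshold. When single libraries were left out, these adjusted p reached 0.208 for *Faah* and 0.210 for *Scd1*.

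**Figure D5:**
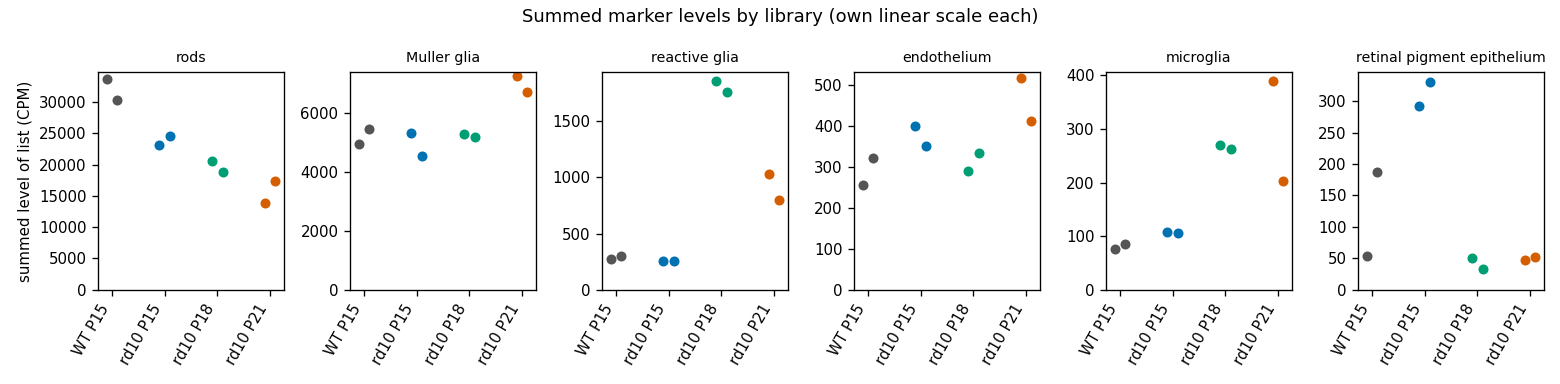
Summed level of 6 marker lists (vertical axis, CPM, linear from 0, with its own scale in each panel) in the 8 libraries, by group. Rod markers are highest in WT P15 at 30419 to 33779 CPM and lowest in rd10 P21 at 13863 to 17468 CPM, RPE markers are highest in rd10 P15 at 292 and 331 CPM, and reactive glia markers are highest in rd10 P18 at 1758 to 1855 CPM.

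The remaining marker lists give the tissue in which the members were read. The 9 cone markers summed to 1172 to 1518 CPM in WT P15, 694 to 792 in rd10 P15, 944 to 976 in rd10 P18 and 1208 to 1298 CPM in rd10 P21. The 10 bipolar markers summed to 1652 to 2236 CPM and 12 amacrine and ganglion markers 2228 to 2719 CPM over all libraries, with no call by edgeR or DESeq2 in any comparison, while 8 and 6 of them had an unadjusted p under 0.05 in at least 1. The share of all genes with such a p in at least 1 was not computed. In rd10 P18 against WT P15 alone, 17.4% of all genes had one. The 13 lens markers summed to 1.81 to 2.65 CPM in WT P15 and 8.48 to 17.4 CPM in rd10 P18, with *Mip* at 0 in every group. The 8 myelin markers summed to 65.2 to 91.4 CPM over all libraries, and 8 cycling markers to 66.4 to 75.5 CPM in WT P15 and 90.6 to 130 CPM in rd10 P18. Retinal identity was plain in all 8 libraries, since rod, bipolar and Muller glia markers were all present with none at 0.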

How the data were processed

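The values are raw gene counts as deposited by the authors, 1 table of all 8 libraries; the submitters' processing notes name HISAT2 for alignment, and its version, the counter, the build and the gene annotation were not given in the sources used here. For names, symbols were matched for 52029 of 57010 identifiers through GENCODE M21, whose gene models may differ from those counted. Genes were filtered with filterByExpr, scaled by TMM and tested with edgeR 4.0.16 (quasi-likelihood, robust, all 8 libraries, 4 residual degrees of freedom) in R 4.3.3, with Benjamini-Hochberg adjustment over 20457 genes. Calls needed an adjusted p under 0.05 together with a log2 fold change beyond 1 in either direction. CPM used TMM-scaled totals, and likeness used log2 CPM with a prior count of 2 among genes with a mean count of at least 50.

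The members and gene lists were chosen with earlier results of these data known, and 2 genes of the lists are not reported here. Genes named beside the 5 members were the tested relatives, from each other pathway list up to 4 called genes with the largest change or else the gene with the smallest adjusted p, and the 5 genes nearest to *Fabp7* and 3 nearest to each other member. Because *Fabp7* was chosen for its P15 rise, the comparison of rd10 P15 with WT P15 is given without p for the members, and so is *Fabp7* wherever those libraries enter. A permutation of 2 against 2 libraries cannot go below p = 0.333, so none was used. Replicate libraries differed beyond counting error (chi-square of 24.5 to 103 per gene), so each counted as 1 sample. Same-numbered libraries did not deviate together (correlations of -0.02 to 0.06). The script was tested on simulated counts. Alternatives were RLE and library-size scaling, no filter, DESeq2 1.42.0, the 4 libraries compared alone, a replicate block, a term for sex, no fold threshold and leaving out each library. Sequences came from RefSeq (GRCm38.p6) and GENCODE M21 and were aligned with Biopython 1.88.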

Additional observations from a re-analysis of the deposited data

How the results depend on the processing

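With 2 libraries a group and 4 residual degrees of freedom, calls of single members turned on small changes of the fit, while their log2 fold changes mostly did not. Members with 31 to 51 counts in a library, such as *Fabp4* and *Fabp7* in WT P15, carry a counting error that limits their folds. Scaling by library size alone moved the median of all genes to 0.13 and 0.11 on the log2 scale in the comparisons of rd10 P18 and P21 with WT P15. Where a call was lost, the cause was not tested, except that leaving out a library also leaves fewer samples.

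The replicate numbers did not pair the libraries. With a replicate block, *Fabp7* lost its place among the calls in rd10 P15 against WT P15 (0 members called) and in rd10 P18 against rd10 P15 (0), and *Fabp12* lost its call in rd10 P21 against WT P15 (0, adjusted p = 0.0735), and the block changed no other count of members called.

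A term for sex gave 0, 0 and 0 members called in the same 3 comparisons. Fitting only the 4 libraries compared gave 0 in rd10 P21 against WT P15, 0 in rd10 P18 against rd10 P15 and 1 in rd10 P21 against rd10 P15 (*Fabp7*). Library size alone gave 1 in rd10 P18 against WT P15 (*Fabp5*) and 0 in rd10 P18 against rd10 P15. Without the fold threshold, 2 members passed in rd10 P18 against WT P15. DESeq2 gave 2 in rd10 P21 against WT P15, 2 in rd10 P21 against rd10 P15 and 1 in rd10 P21 against rd10 P18, with *Fabp4* among them each time, and *Fabp7*, which follows from the choice, as the other in rd10 P21 against rd10 P15. Leaving out single libraries gave 0 to 1 members called in every comparison except rd10 P21 against rd10 P18, which stayed at 0. RLE scaling and no filter on low counts left all 6 counts as they were.

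Some differences changed sign, and none of those had passed the test. With a term for sex, *Fabp4* had 0.032 in rd10 P15 against WT P15, and in rd10 P18 against rd10 P15 *Fabp5* had 0.080, *Crabp1* 0.16 and *Crabp2* 0.022. In rd10 P21 against rd10 P15 the same term gave 0.0096 for *Crabp2*. With library size alone, P18 against P15 gave 0.074 for *Fabp5*, 0.058 for *Crabp1* and 0.0013 for *Crabp2*.

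Leaving out single libraries, *Fabp3* ranged from -0.055 to 0.53 in rd10 P21 against WT P15 and from -0.15 to 0.41 in rd10 P18 against rd10 P15. *Fabp4* ranged from -0.73 to 0.26 in rd10 P15 against WT P15 and from -0.57 to 0.43 in rd10 P18 against rd10 P15. In rd10 P18 against rd10 P15, *Fabp5* ranged from -0.14 to 0.15 and *Crabp1* from -0.33 to 0.23. *Fabp12* ranged from -0.43 to 0.037 in rd10 P21 against rd10 P18. *Crabp2* ranged from -0.25 to 0.90, -0.33 to 0.83 and -0.34 to 0.82 at P15, P18 and P21 against WT P15, from -0.29 to 0.17 and -0.30 to 0.16 at P18 and P21 against rd10 P15, and from -0.13 to 0.10 between P21 and P18. *Fabp7* kept its direction in all 6 comparisons, with 2.64 to 3.17 in rd10 P15 against WT P15. Of the values of single genes under an alternative, 663 kept their direction and call, 28 changed sign, 41 lost and 26 gained a call, and 7 of those given without a test moved by more than their spread.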
